A study of Mus musculus with 18 samples.

Results

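The genes described here were the 58 Wnt ligands, receptors and modulators found by symbol among the 24360 gene symbols of each count table. They comprised 19 Wnt ligands, 12 receptors (10 Frizzled genes with Lrp5 and Lrp6), 9 secreted antagonists (Sfrp, Dkk and Wif1), 9 genes of the R-spondin arm (Rspo, Lgr, Rnf43 and Znrf3), 5 cytoplasmic members (Ctnnb1, Apc, Axin1, Axin2 and Nkd1) and the 4 TCF/LEF nuclear factors. The rule used symbols and no measured value. In the mouse mammary tumour line 67NR, many expressed members were lower after knockout (KO) of Kmt2c or Kmt2d, the ligands Wnt9a, Wnt10a and Wnt7b, the receptor Fzd6, the antagonist Sfrp1, the agonist Rspo3, beta-catenin (Ctnnb1) and the factor Lef1 among them. In the line 168FARN, the same test called none of the 23 members tested in either KO. It also called few genes of any kind there, 0.359% after Kmt2c KO and 0.286% after Kmt2d KO. In 67NR these shares were 35.3% and 25.5%. Dkk2, Fzd4 and Tcf7 were among the members that passed in other fits of 168FARN.

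Wnt ligands are secreted lipid-modified proteins that bind a Frizzled receptor together with Lrp5 or Lrp6. In the absence of ligand, a complex built on Axin and Apc marks beta-catenin for degradation, whereas binding of ligand lets beta-catenin accumulate and act with TCF/LEF factors on target genes. R-spondins bind Lgr receptors and remove the ubiquitin ligases Rnf43 and Znrf3, which would otherwise clear Frizzled from the cell surface, and secreted Sfrp, Dkk and Wif1 proteins hold the pathway back. In the mammary gland the pathway is known for its part in stem and basal cells, and a mouse mammary tumour virus insertion site gave the first Wnt gene its original name.

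RNA sequencing covered 6 groups with 3 libraries each, namely WT cells and cells with KO of Kmt2c or of Kmt2d from 168FARN and from 67NR, both nonmetastatic lines grown in culture. Kmt2c and Kmt2d encode histone H3 lysine 4 methyltransferases. KO cells came from repeated transfection of Cas9 with pooled guides and cell sorting, so that each KO group is a mixed population and not a clone. The study's sequencing of the targeted regions gave a lower share of mutant reads for Kmt2c in 67NR than in any other KO population. The part of this in the results was not tested. WT columns of 168FARN carry the name of a control sgRNA, whereas those of 67NR are named WT.

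Library totals ranged from 14359760 to 43427382 counts in 168FARN and from 40951775 to 79251530 in 67NR. Of counts between 1 and 20, 91.2% to 96.2% were even in the 67NR libraries and 39.5% to 47.2% in the 168FARN libraries, so 2 counts in 67NR were read as 1 read pair wherever a counting interval is given. The ribosomal RNA precursor Rn45s took 28.7% of counts in 67NR Kmt2d KO replicate 3. Kmt2c mRNA was not lower after Kmt2c KO in 67NR, with 88.9, 95.7 and 85.5 CPM (counts scaled by TMM library size) against 56.9, 63.1 and 54.6 in WT, and was at 96.7, 89.1 and 46.9 CPM in 168FARN against 113, 106 and 44.7. After Kmt2d KO, Kmt2d mRNA was at 94.1, 147 and 97.9 CPM in 67NR against 112, 97.2 and 83.0 in WT, and at 296, 260 and 136 CPM in 168FARN against 160, 159 and 104. Small edits need not lower the mRNA, so these levels do not test the labels.

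Among the members with the most calls and the smallest p-values in the comparisons of KO with WT, the promoters of Wnt9a and Ctnnb1 are shown, the first in that order for which the RefSeq table used here gave an entry. Both are the 250 bases before the RefSeq start in GRCm38.p6 on the plus strand, at chr11:59306680-59306929 and chr9:120933150-120933399, with CpG dinucleotides in capitals. RefSeq gave 2 entries for Ctnnb1, and the window shown lies before the more upstream start.
Wnt9a: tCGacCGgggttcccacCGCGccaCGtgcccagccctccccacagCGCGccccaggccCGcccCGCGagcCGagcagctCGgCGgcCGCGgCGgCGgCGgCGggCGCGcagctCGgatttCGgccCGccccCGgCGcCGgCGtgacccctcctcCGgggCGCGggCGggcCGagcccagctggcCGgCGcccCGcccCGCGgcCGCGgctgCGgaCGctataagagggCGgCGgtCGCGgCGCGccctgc
Ctnnb1: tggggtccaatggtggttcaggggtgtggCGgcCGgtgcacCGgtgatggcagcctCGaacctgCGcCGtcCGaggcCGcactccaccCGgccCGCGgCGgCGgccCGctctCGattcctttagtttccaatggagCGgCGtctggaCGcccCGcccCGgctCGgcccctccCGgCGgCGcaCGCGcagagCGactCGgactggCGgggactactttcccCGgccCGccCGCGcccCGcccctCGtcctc
The Wnt9a window holds 48 CpG dinucleotides and the Ctnnb1 window 35, beside a median of 6 over all 32851 promoters of the RefSeq table and of 20.5 over the 48 entries found for 38 of the 58 members. The TCF/LEF core CTTTGA, searched on both strands, was in neither window. It was in 5 of the 48 entries, from 5 of the 38 members (Dkk1, Fzd1, Lef1, Wnt11 and Wnt5b), and in 13.8% of all promoters. The E-box CACCTG, searched likewise, was in neither window. It was in 11 of the 48 entries, from 10 of the 38 members, and in 17.2% of all promoters. Fzd6, Sfrp1, Wnt10a and Rspo3 were the others of the first 6 and are named only.

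Of the 58 members, 35 reached the minimum count for testing in at least 1 line. The filter passed 33 in 67NR and 23 in 168FARN, 21 of them in both lines. The other 23 had at most 56 counts summed over the libraries of a line, and 6 of these had no count in any of the 18 libraries. Wnt1, Wnt2, Wnt3a, Wnt4, Wnt5a, Wnt8a, Wnt8b, Wnt9b, Wnt11, Wnt16, Fzd8, Fzd10, Dkk1, Dkk3, Dkk4, Sfrp2, Sfrp5, Wif1, Lgr5, Rspo1, Rspo2, Rspo4 and Nkd1 were in this low group, for which no test across libraries was made.

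**Figure D1:**
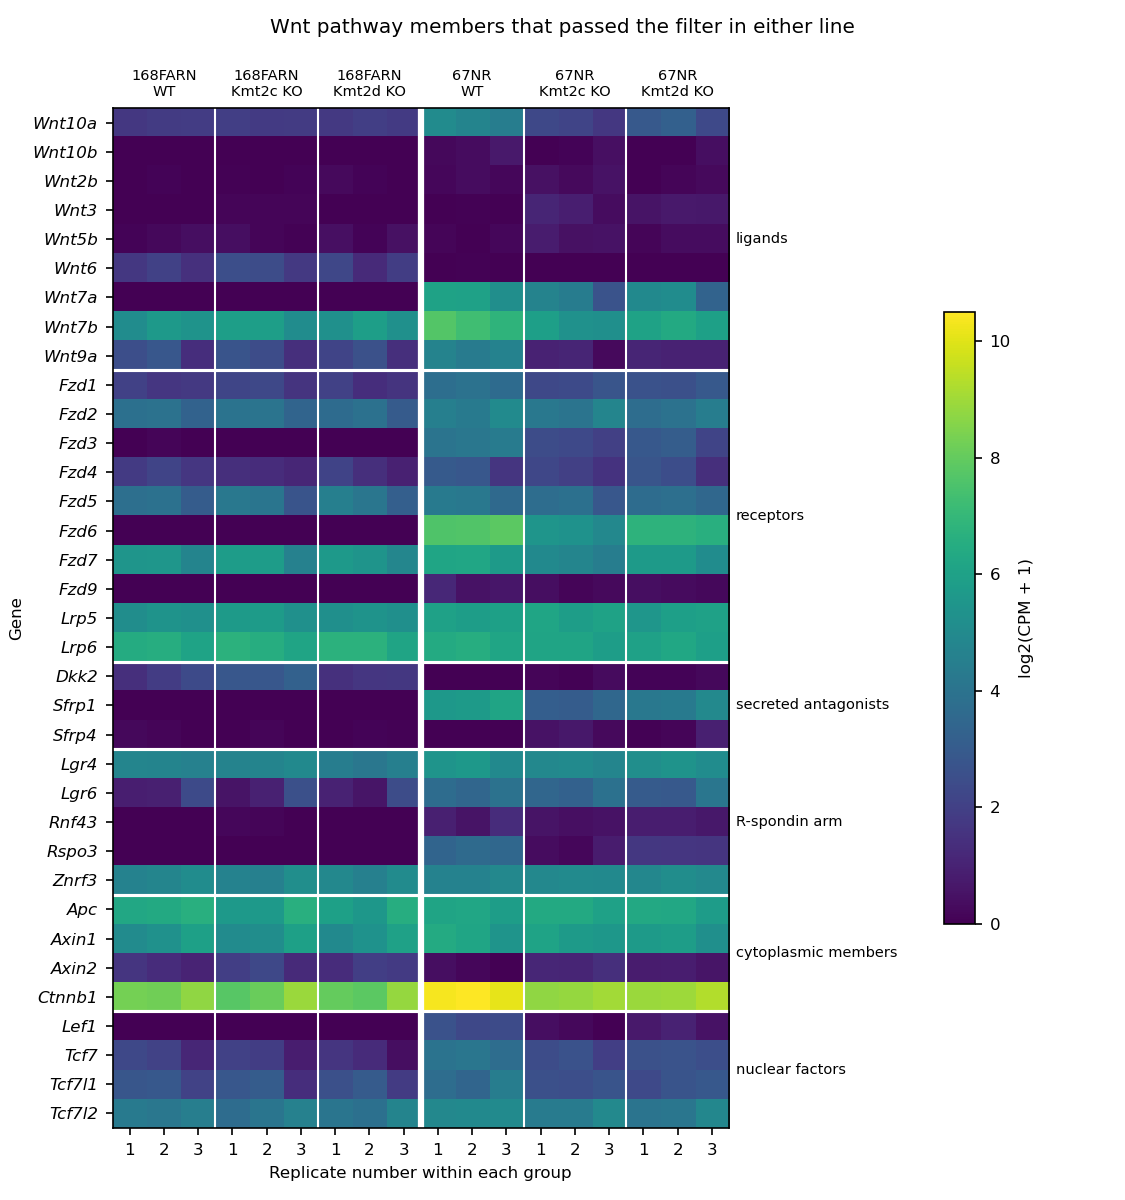
Level of each of the 35 members that passed the filter in either line, as log2(CPM + 1), with genes in rows grouped by role and the 18 libraries in columns grouped by line and genotype. Fzd6, Wnt7a, Sfrp1, Rspo3 and Lef1 are near 0 in all 9 libraries of 168FARN and lower in the KO than in the WT libraries of 67NR, and Ctnnb1 is the highest row.

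The comparison of KO with WT in 67NR asked how Wnt gene expression differed after KO of either methyltransferase gene in this line. Calls here rest on the quasi-likelihood test of edgeR, with p-values adjusted by the Benjamini-Hochberg method over all genes tested, and need a log2 fold change beyond 0.6 in size together with an adjusted p below 0.1. In Kmt2c KO cells 20 of the 33 members tested were called, 4 higher and 16 lower, beside 35.3% of all 13665 genes tested (17.9% higher and 17.4% lower). After Kmt2d KO 15 were called, 2 higher and 13 lower, beside 25.5% of all genes (13.9% higher and 11.6% lower). The median log2 fold change of the members tested was -1.22 after Kmt2c KO and -0.6 after Kmt2d KO, beside -0.0167 and -0.0239 over all genes tested. Both comparisons use the same 3 WT libraries, and the filter keeps genes that are high in only 1 group, so these counts describe the members that passed and not all 58.

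Levels of epithelial markers and of some mesenchymal ones differed between the same libraries. The summed level of 10 epithelial markers was 2795 to 4206 CPM in 67NR WT, 639 to 884 after Kmt2c KO and 1129 to 1749 after Kmt2d KO, with 10 of 10 above 1 CPM in each group. Epcam was at a mean of 575, 156 and 223 CPM and Cdh1 at 482, 69.1 and 187 CPM in the 3 genotypes in that order. The summed level of 11 mesenchymal markers overlapped between the groups, at 3204 to 6036 CPM in WT, 4454 to 5737 after Kmt2c KO and 4157 to 5708 after Kmt2d KO, with Thy1 at 0 counts in WT and Kmt2c KO cells. Within that list the group means in the same order were 602, 3256 and 2743 CPM for Vim, 5.05, 73.6 and 52.7 for Zeb1, and 4346, 1109 and 1475 for Fn1. Fn1 was the highest of the list in WT and so weighed most in the sum. Cdh2, Zeb2, Twist1, Snai2, Pdgfrb and Col3a1 also had higher means in both KO groups, and Col1a1 had lower ones. A list of 4 myoepithelial markers summed to 10.2 to 23.2 CPM in WT, 0.503 to 2.64 after Kmt2c KO and 1.15 to 6.15 after Kmt2d KO, with Krt5 at 0 counts in each group. The 5 endothelial markers summed to 0.405 to 0.716 CPM in WT, 1.51 to 2.24 after Kmt2c KO and 0.898 to 1.54 after Kmt2d KO, with Cldn5 at 0 counts in each group. The part of these shifts in the Wnt results was not tested, and in bulk RNA fewer cells of a type and less RNA per cell cannot be told apart.

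Among the ligands, Wnt9a had the largest fold change toward lower levels in both KO groups. Wnt9a, one of the ligands that act through beta-catenin in several tissues, was at 25.1, 19.7 and 24.4 CPM in the WT libraries, at 1.01, 1.13 and 0.194 after Kmt2c KO and at 1.13, 1.04 and 1.03 after Kmt2d KO. Every KO library lay far below the lowest WT library. The log2 fold change was -4.86 ± 0.52 (SE, adjusted p = 0.000124) after Kmt2c KO and -4.44 ± 0.51 (adjusted p = 0.000332) after Kmt2d KO. Wnt9a lies at chr11:59120430-59147054 in mm9, 16.2 kb from Wnt3a, which had no count in any library of either line.

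Wnt10a, a ligand known for its roles in skin, tooth and mammary epithelium, was at 32.2, 25.8 and 21.2 CPM in WT, 3.79, 3.46 and 2.28 after Kmt2c KO and 6.68, 8.26 and 4.05 after Kmt2d KO. The 3 groups did not overlap. Its log2 fold change was -3.05 ± 0.33 (adjusted p = 0.000126) after Kmt2c KO and -2.06 ± 0.31 (adjusted p = 0.0017) after Kmt2d KO. Its neighbour Wnt6, 6.2 kb away on chromosome 1, had 4 counts in 67NR WT and none in the KO libraries of that line.

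The paralogues Wnt7b and Wnt7a, ligands expressed in mammary epithelium and its tumours, had the highest ligand levels of 67NR WT cells per transcript length. Wnt7b was at 204, 154 and 112 CPM in WT, 59.9, 38.5 and 36.3 after Kmt2c KO and 65.6, 81.5 and 61.8 after Kmt2d KO, and all KO libraries lay below the WT range. It fell by 1.80 ± 0.27 on the log2 scale in Kmt2c KO (adjusted p = 0.000946) and by 1.17 ± 0.27 after Kmt2d KO (adjusted p = 0.013). Wnt7a was at 66.2, 63.3 and 35.5 CPM in WT, 24.9, 20.2 and 5.45 after Kmt2c KO and 31.1, 34.0 and 9.25 after Kmt2d KO, with no overlap between WT and either KO and with replicate 3 lowest in each group. Its log2 fold change was -1.70 ± 0.60 in Kmt2c KO (adjusted p = 0.0555) and -1.15 ± 0.59 after Kmt2d KO (adjusted p = 0.206), and with a replicate block both passed, at adjusted p = 3.86e-05 and 0.000766. The Kmt2c KO call of Wnt7a was lost without WT replicate 1, WT replicate 2, Kmt2c KO replicate 2 or Kmt2c KO replicate 3, with adjusted p from 0.105 to 0.129.

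Wnt3 and Wnt5b were the ligands called higher. Wnt3, a ligand that activates beta-catenin signalling, had 2, 4 and 0 counts in the WT libraries, 85, 52 and 11 after Kmt2c KO and 24, 34 and 24 after Kmt2d KO. In CPM these were 0.0232, 0.0573 and 0 in WT, 1.16, 0.825 and 0.266 after Kmt2c KO and 0.458, 0.652 and 0.615 after Kmt2d KO. The pooled ratio to WT was 28.2 (95% exact interval for counting error 9.28 to 140) after Kmt2c KO and 19.1 (6.09 to 96.4) after Kmt2d KO. Both passed the test, with adjusted p of 0.00304 and 0.00748, although no library exceeded 1.16 CPM. Its fitted log2 fold change depended on WT replicate 2, moving from 4.6 to 5.49 after Kmt2c KO and from 4.21 to 5.12 after Kmt2d KO without that library. Wnt9b, 24.3 kb from Wnt3 on chromosome 11, had 2 counts in 1 Kmt2c KO library and none elsewhere in 67NR.

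Wnt5b, a ligand best known from signalling that does not use beta-catenin, was at 0.0927, 0.0287 and 0.135 CPM in WT, 0.734, 0.381 and 0.436 after Kmt2c KO and 0.115, 0.268 and 0.256 after Kmt2d KO. Kmt2c KO libraries lay above the WT range, whereas Kmt2d KO libraries overlapped it. Its log2 fold change was 2.61 ± 0.68 (adjusted p = 0.0157) after Kmt2c KO and 1.33 ± 0.69 (adjusted p = 0.206) after Kmt2d KO. Wnt10b and Wnt2b, at no more than 0.630 CPM in any library, were called in neither KO, although the replicate block gave Wnt10b an adjusted p of 0.0838 after Kmt2c KO and 0.0577 after Kmt2d KO with log2 fold changes of -1.49 and -1.87 without the block. Wnt10b lies 53.5 kb and Wnt1 37.8 kb from Kmt2d on chromosome 15 of mm9.

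**Figure D2:**
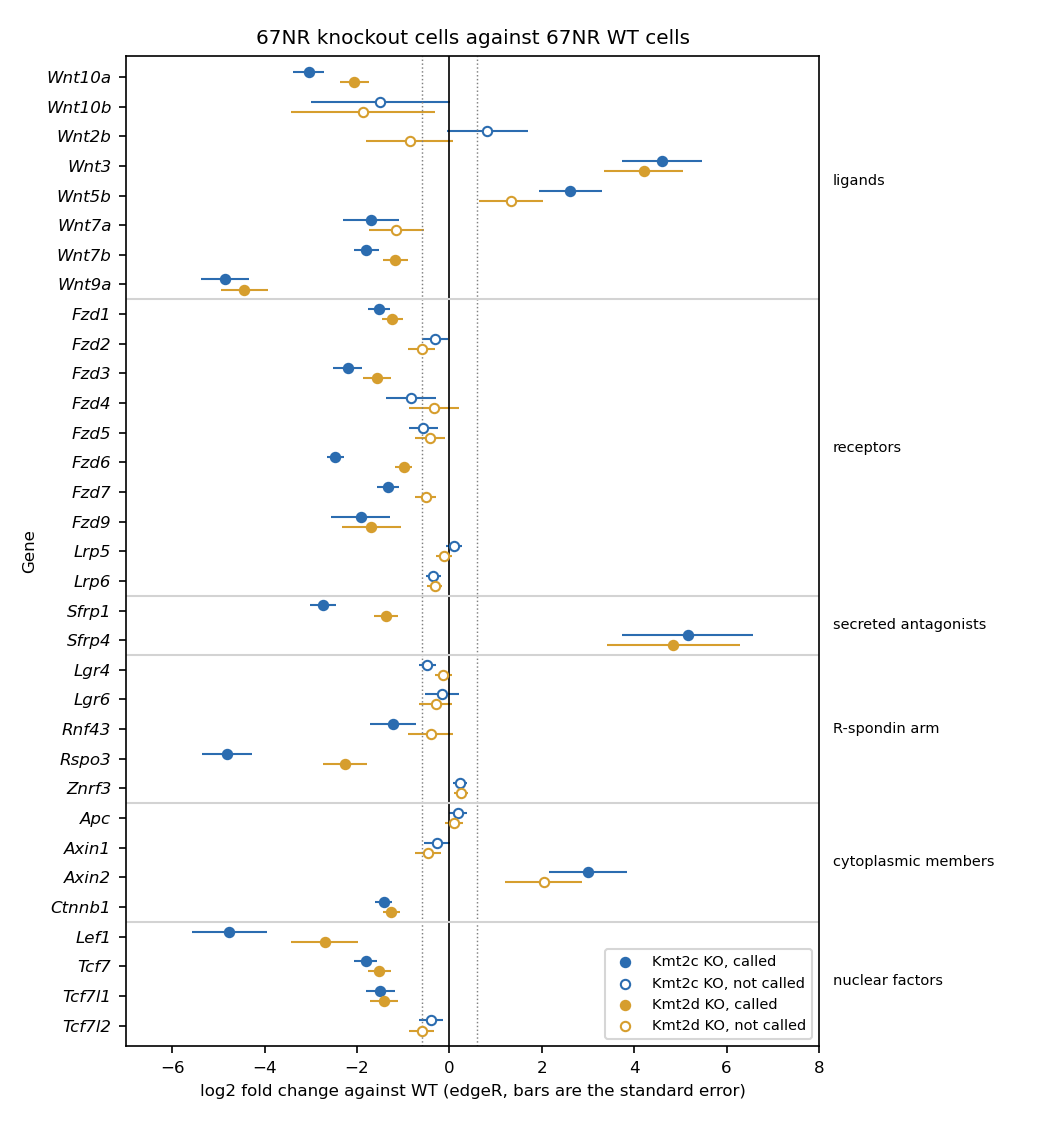
log2 fold change of each of the 33 members tested in 67NR, Kmt2c KO (blue) and Kmt2d KO (yellow) against the same 3 WT libraries, with standard errors as bars. Filled points were called, dotted lines mark the fold change threshold of 0.6, and the called members at the right are Wnt3, Wnt5b, Sfrp4 and Axin2.

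Among the receptors 5 of 10 were lower after Kmt2c KO and 4 after Kmt2d KO, beside 17.4% and 11.6% of all genes tested. None was higher, beside 17.9% and 13.9% of all genes. Fzd6, a Frizzled receptor known for planar cell polarity and for restraining beta-catenin signalling, had the highest Frizzled level per transcript length in 67NR WT cells and was at 196, 202 and 229 CPM. It was at 44.0, 40.3 and 28.7 CPM after Kmt2c KO and 109, 110 and 96.4 CPM after Kmt2d KO, with each group apart from the others. The fitted log2 fold change was -2.47 ± 0.19 (adjusted p = 1.64e-05) after Kmt2c KO and -0.99 ± 0.18 (adjusted p = 0.00388) after Kmt2d KO. Fzd6 lies at chr15:38837879-38869732 in mm9.

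Fzd3, which shares planar polarity roles with Fzd6, was at 15.3, 17.2 and 19.9 CPM in WT, 4.37, 3.997 and 2.95 after Kmt2c KO and 6.40, 7.67 and 3.46 after Kmt2d KO. Both KO groups lay below WT, with log2 fold changes of -2.20 ± 0.31 (adjusted p = 0.000636) and -1.58 ± 0.30 (adjusted p = 0.00571). Fzd1, a receptor for ligands that stabilise beta-catenin, was at 12.9, 14.4 and 11.9 CPM in WT, 3.80, 4.06 and 5.86 after Kmt2c KO and 5.18, 4.96 and 6.56 after Kmt2d KO. The KO groups overlapped each other and not WT, and the log2 fold changes were -1.52 ± 0.23 (adjusted p = 0.00101) and -1.23 ± 0.23 (adjusted p = 0.00493).

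Fzd7, a Frizzled receptor prominent in basal-like breast cancer cells, was at 70.7, 73.2 and 51.4 CPM in WT, 30.4, 26.5 and 20.9 after Kmt2c KO and 51.4, 52.0 and 33.7 after Kmt2d KO. Only the Kmt2c KO libraries lay wholly below WT. The log2 fold change was -1.33 ± 0.23 (adjusted p = 0.00217) after Kmt2c KO and -0.51 ± 0.23 (adjusted p = 0.148) after Kmt2d KO. Fzd9 was low, at 1.27, 0.430 and 0.540 CPM in WT, 0.299, 0.0952 and 0.194 after Kmt2c KO and 0.306, 0.230 and 0.154 after Kmt2d KO. Its log2 fold changes of -1.92 ± 0.64 (adjusted p = 0.0438) and -1.69 ± 0.64 (adjusted p = 0.0886) rested on few reads, and neither KO group overlapped WT. The Kmt2c KO call was lost without WT replicate 1 (log2 fold change -1.30, adjusted p = 0.193), Kmt2c KO replicate 2 or Kmt2c KO replicate 3, and the Kmt2d KO call without WT replicate 1 (-1.05, adjusted p = 0.351) or any of the Kmt2d KO replicates.

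Fzd2, Fzd4, Fzd5, Lrp5 and Lrp6 were not called in either KO. Lrp5 and Lrp6, the coreceptors, had log2 fold changes of 0.09 ± 0.17 and -0.35 ± 0.17 after Kmt2c KO and -0.12 ± 0.17 and -0.32 ± 0.17 after Kmt2d KO. In 67NR WT Lrp5 was at 63.0, 56.3 and 62.5 CPM and Lrp6 at 85.5, 91.8 and 70.5 CPM, and the KO libraries of Lrp5 overlapped these values. Fzd4 had a log2 fold change of -0.83 in Kmt2c KO (adjusted p = 0.278, and 0.0304 with the replicate block) and was called in 4 of 16 other settings.

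Each of the secreted antagonists tested in 67NR, Sfrp1 and Sfrp4, was called in both KO groups and in opposite directions. Sfrp1, a Frizzled-like decoy that binds Wnt proteins, was at 47.9, 51.3 and 70.1 CPM in WT, 7.73, 7.23 and 10.4 after Kmt2c KO and 17.3, 18.5 and 29.8 after Kmt2d KO. The 3 groups did not overlap, and the log2 fold changes were -2.74 ± 0.28 (adjusted p = 8.8e-05) and -1.37 ± 0.26 (adjusted p = 0.00565). Sfrp4, of the same family, had 2, 0 and 0 counts in WT, 32, 38 and 8 after Kmt2c KO and 2, 6 and 34 after Kmt2d KO. The pooled ratio to WT was 43.9 (95% exact interval for counting error 7.44 to 1780) after Kmt2c KO and 29.3 (4.72 to 1210) after Kmt2d KO, with adjusted p of 0.0208 and 0.0392. The Kmt2d KO call of Sfrp4 was lost without Kmt2d KO replicate 3, which held most of the counts (adjusted p = 0.155), or without WT replicate 2 (adjusted p = 0.116). Its fitted log2 fold changes of 5.16 and 4.84 moved to 7.49 and 7.21 without WT replicate 1, the library with the WT counts. Dkk2, an Lrp6 ligand that blocks Wnt binding, had 2 counts in the WT libraries, 20 after Kmt2c KO and 14 after Kmt2d KO, and was not tested in 67NR.

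In the R-spondin arm Rspo3 had the largest fold change. Rspo3, an R-spondin that amplifies Wnt signalling and is a known insertion site in mouse mammary tumours, was at 9.34, 11.4 and 10.5 CPM in WT, 0.272, 0.127 and 0.750 after Kmt2c KO and 2.25, 2.15 and 2.10 after Kmt2d KO. No group overlapped another. It fell by 4.81 ± 0.55 on the log2 scale (adjusted p = 0.000187) after Kmt2c KO and by 2.26 ± 0.48 (adjusted p = 0.0092) after Kmt2d KO. Without Kmt2c KO replicate 3, the highest of its group, the Kmt2c KO value was -5.67.

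Rnf43, the ubiquitin ligase that clears Frizzled, was at 0.892, 0.458 and 1.55 CPM in WT, 0.448, 0.349 and 0.436 after Kmt2c KO and 0.802, 0.767 and 0.615 after Kmt2d KO. Its Kmt2c KO libraries lay just below the lowest WT library, with a log2 fold change of -1.22 ± 0.50 (adjusted p = 0.0875), and after Kmt2d KO the value was -0.40 ± 0.49 (adjusted p = 0.62). The Kmt2c KO call was lost in 5 of the 6 fits that left out 1 library, those without WT replicate 1, WT replicate 3 or any Kmt2c KO replicate, with adjusted p from 0.145 to 0.259. Its paralogue Znrf3 and the R-spondin receptors Lgr4 and Lgr6 were not called. Znrf3 was at 24.2 to 29.3 CPM in WT and 28.5 to 34.4 CPM over both KO groups, and Lgr4 had an adjusted p of 0.0764 after Kmt2c KO with a log2 fold change of -0.48, under the fold threshold.

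Among the cytoplasmic members Ctnnb1 was lower and Axin2 higher. Ctnnb1, which encodes beta-catenin, a protein of both the Wnt pathway and adherens junctions, was at 1294, 1450 and 1099 CPM in WT, 437, 460 and 533 after Kmt2c KO and 486, 498 and 625 after Kmt2d KO. Every KO library was below every WT library. Its log2 fold change was -1.43 ± 0.18 (adjusted p = 0.000305) after Kmt2c KO and -1.26 ± 0.18 (adjusted p = 0.00108) after Kmt2d KO. The gene lies at chr9:120838334-120869625 in mm9.

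Axin2, a scaffold of the degradation complex and a widely used target gene of beta-catenin, had 28, 10 and 0 counts in WT, 86, 72 and 70 after Kmt2c KO and 40, 40 and 20 after Kmt2d KO. The corresponding levels were 0.324, 0.143 and 0 CPM in WT, 1.17, 1.14 and 1.69 after Kmt2c KO and 0.764, 0.767 and 0.513 after Kmt2d KO, so that both KO groups lay above WT. The fitted log2 fold change was 3.0 ± 0.84 (adjusted p = 0.0225) after Kmt2c KO and 2.04 ± 0.83 (adjusted p = 0.113) after Kmt2d KO, the latter called with the replicate block (adjusted p = 0.0355). Without WT replicate 1 the Kmt2c KO value was 4.03. Axin1 and Apc, the constitutive partners of the complex, were not called. Axin1 was at 85.6, 70.7 and 42.6 CPM in WT, 67.0, 52.0 and 45.9 after Kmt2c KO and 51.7, 56.1 and 36.5 after Kmt2d KO, whose ranges overlapped.

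All 4 nuclear factors were tested and 3 were lower in each KO, beside 17.4% of all genes after Kmt2c KO and 11.6% after Kmt2d KO. Lef1, a TCF/LEF factor that activates targets with beta-catenin, was at 5.27, 3.85 and 4.28 CPM in WT, 0.299, 0.159 and 0 after Kmt2c KO and 0.649, 0.996 and 0.410 after Kmt2d KO. The groups did not overlap, and the log2 fold changes were -4.77 ± 0.81 (adjusted p = 0.00187) and -2.69 ± 0.73 (adjusted p = 0.0267). Without Kmt2c KO replicate 1 the Kmt2c KO value of Lef1 was -5.65.

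Tcf7, which encodes TCF1, was at 14.9, 16.5 and 12.5 CPM in WT, 4.42, 5.20 and 2.88 after Kmt2c KO and 5.10, 5.50 and 4.74 after Kmt2d KO. Its log2 fold changes were -1.81 ± 0.25 (adjusted p = 0.000557) and -1.52 ± 0.25 (adjusted p = 0.00241). Tcf7l1, the family member best known as a repressor, was at 12.6, 9.63 and 20.6 CPM in WT, 4.86, 4.71 and 5.62 after Kmt2c KO and 3.97, 5.71 and 6.41 after Kmt2d KO. Both KO groups lay below WT for either gene, and those of Tcf7l1 changed by -1.49 ± 0.31 (adjusted p = 0.00524) and -1.41 ± 0.31 (adjusted p = 0.0106). Tcf7l2, at 29.1, 30.9 and 31.6 CPM in WT, 19.6, 19.5 and 30.2 after Kmt2c KO and 15.6, 16.6 and 28.3 after Kmt2d KO, was not called. Its Kmt2d KO libraries lay below WT, with a log2 fold change of -0.60 (adjusted p = 0.142, and 0.00797 with the replicate block).

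Summed per transcript length, in RPKM, the 19 ligands together were at 87.8, 71.5 and 53.0 in the 67NR WT libraries, 24.1, 17.4 and 11.6 after Kmt2c KO and 28.0, 33.2 and 19.4 after Kmt2d KO. The 12 receptors summed to 102 to 105 RPKM in WT, 40.5 to 47.8 after Kmt2c KO and 59.4 to 67.1 after Kmt2d KO. The secreted antagonists summed to 11.04 to 16.02, 1.82 to 2.50 and 3.998 to 7.08 RPKM, respectively. In each of the 3 sums the KO libraries lay below the WT libraries. The antagonist sum was mostly Sfrp1, at 10.96 to 16.02 RPKM in WT, 1.65 to 2.39 after Kmt2c KO and 3.96 to 6.82 after Kmt2d KO. Fzd6 had means of 51.2, 9.23 and 25.7 RPKM in the same order, and Wnt7b of 35.5, 10.2 and 15.8. The sums thus follow the highest genes and do not describe each class as a whole. In 168FARN the same sums overlapped between WT and KO cells for ligands and receptors, at 11.1 to 15.4 and 24.0 to 34.2 RPKM in WT, and the antagonist sum, which was mostly Dkk2 (0.458 to 1.12 RPKM in WT), was 0.499 to 1.12 in WT and 1.72 to 2.34 after Kmt2c KO.

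**Figure D3:**
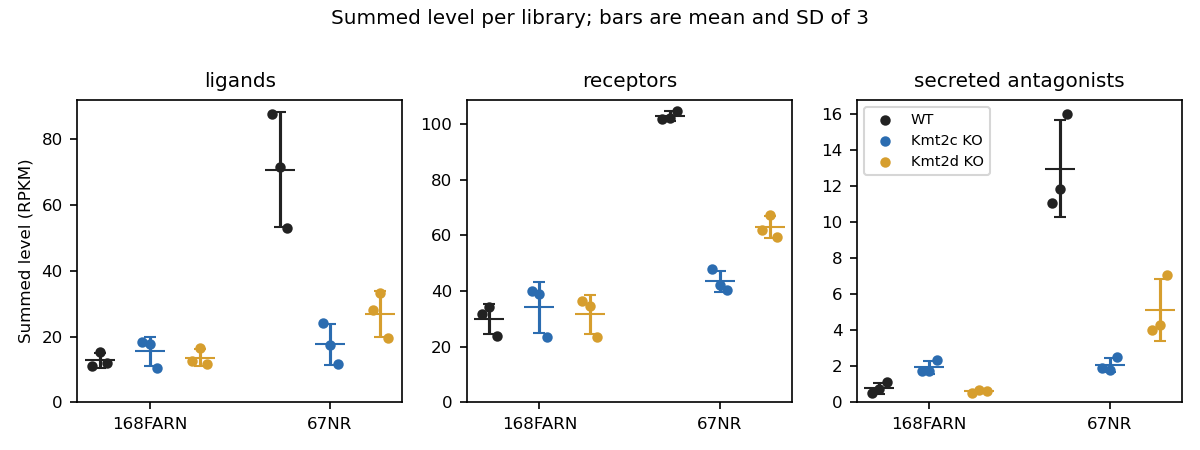
Summed level in RPKM of the 19 ligands, 12 receptors and 9 secreted antagonists in each library, by line and genotype, with the mean and SD of 3 libraries as bars. In 67NR the KO points lie below the WT points in each panel, and in 168FARN the ligand and receptor points of the 3 genotypes overlap.

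The KO groups of 67NR were compared with each other to ask where the Kmt2c KO and Kmt2d KO cells differed. Members were called at 3 of 33, all lower after Kmt2c KO, beside 1.41% of all genes tested (0.132% higher and 1.28% lower). They were Fzd6 with a log2 difference of -1.48 ± 0.18 (adjusted p = 0.0109), Sfrp1 with -1.37 ± 0.26 (adjusted p = 0.0595) and Rspo3 with -2.55 ± 0.51 (adjusted p = 0.0711). Sfrp1 and Rspo3 were each lost without Kmt2c KO replicate 1 or 2 or Kmt2d KO replicate 1 or 2, with adjusted p from 0.112 to 0.272 and from 0.171 to 0.27, and without Kmt2c KO replicate 3 Rspo3 was at -3.41. With the replicate block 7 members were called, beside 7.29% of all genes, Fzd7 (log2 difference -0.82 and adjusted p = 0.206 without the block, 0.00283 with it), Lef1 (-2.07, 0.357 and 0.0607), Wnt10a (-0.99, 0.255 and 0.00919) and Wnt7b (-0.63, 0.429 and 0.0446) in addition. Wnt9a, Fzd1, Ctnnb1, Tcf7 and Tcf7l1 had differences of -0.42 ± 0.47, -0.28 ± 0.23, -0.17 ± 0.17, -0.29 ± 0.25 and -0.08 ± 0.31 between the KO groups, none of which was called.

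In 168FARN the same comparisons were made. Of 23 members tested, 0 were called by edgeR after Kmt2c KO, beside 0.359% of all 12253 genes tested (0.196% higher and 0.163% lower), and 0 after Kmt2d KO, beside 0.286% (0.147% higher and 0.139% lower). Before adjustment, p was under 0.05 for 1 member after Kmt2c KO (Dkk2, higher) and 0 after Kmt2d KO. DESeq2 called 1 and 0 members, beside 2.35% and 2.02% of all genes. Dkk2 was at 1.69, 2.62 and 4.14 CPM in WT, 6.24, 6.22 and 8.62 after Kmt2c KO and 1.73, 2.12 and 2.30 after Kmt2d KO. The Kmt2c KO libraries lay above all others. The log2 fold change against WT was 1.32 ± 0.36 (adjusted p = 0.392 in edgeR, 0.0211 in DESeq2), and with the replicate block it was called at adjusted p = 0.00231. Against Kmt2d KO cells Dkk2 differed by 1.78 ± 0.37, with adjusted p = 0.198 and 0.000755 with the block. That comparison called 0 of 23 members, beside 0.253% of all genes (0.131% higher and 0.122% lower). DESeq2 called 1 member in it, beside 1.92% of all genes. Dkk2 and Lgr4 (0.45, adjusted p = 0.789) had an unadjusted p under 0.05 there.

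The replicate block called 2 more members in 168FARN, where it called 7.23% of all genes after Kmt2c KO and 5.9% after Kmt2d KO. Fzd4, a receptor for Norrin and Wnt ligands, was at 2.45, 3.42 and 2.21 CPM in WT and 1.69, 1.503 and 1.201 after Kmt2c KO, which did not overlap, with a log2 fold change of -0.88 ± 0.46 (adjusted p = 0.988, and 0.0972 with the block). Tcf7 was at 3.88, 3.25 and 1.19 CPM in WT and 2.04, 1.48 and 0.296 after Kmt2d KO, which overlapped, with replicate 3 lowest in both groups. Its log2 fold change was -1.13 ± 0.79 (adjusted p = 1, and 0.0235 with the block). Without the replicates 3 of all groups, 5 members were called after Kmt2c KO and 2 after Kmt2d KO, beside 14.5% and 11% of all genes.

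None of the 6 members with the highest levels per transcript length in 168FARN WT was called in either KO of that line. Ctnnb1 was at 318, 297 and 432 CPM in WT, 218, 274 and 485 after Kmt2c KO and 261, 231 and 462 after Kmt2d KO. Wnt7b was at 33.5, 48.3 and 41.4 CPM in WT, 57.6, 58.6 and 33.9 after Kmt2c KO and 38.2, 57.7 and 37.9 after Kmt2d KO. Both genes overlapped between all groups, with log2 fold changes from -0.13 to 0.28. Lrp6 was at 88.2, 92.8 and 67.2 CPM in WT, 106, 91.8 and 69.9 after Kmt2c KO and 107, 106 and 68.7 after Kmt2d KO. For Lrp5 the CPM were 34.3, 41.0 and 37.2 in WT, 52.0, 52.7 and 37.6 with Kmt2c KO, and 36.5, 41.4 and 36.2 with Kmt2d KO. Their groups overlapped too, with log2 fold changes up to 0.34. Fzd7 was at 43.7, 45.0 and 25.5 CPM in WT, 54.6, 54.8 and 23.8 after Kmt2c KO and 50.9, 42.6 and 27.6 after Kmt2d KO. Axin1 was at 32.5, 38.9 and 61.1 CPM in WT, 32.5, 34.2 and 61.7 after Kmt2c KO and 30.6, 39.9 and 63.4 after Kmt2d KO. In both genes replicate 3 stood apart from the others in each group, low for Fzd7 and high for Axin1. Wnt10a, far lower after KO in 67NR, was at 2.25, 2.50 and 2.70 CPM in 168FARN WT, 2.86, 2.46 and 2.59 after Kmt2c KO and 2.38, 2.83 and 2.41 after Kmt2d KO, with log2 fold changes of 0.09 and 0.03.

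Some members below the filter in 168FARN had counts in 1 genotype only or mostly. Nkd1, an inhibitor induced by Wnt signalling, had 2 counts over the WT libraries, 11 after Kmt2c KO and 30 after Kmt2d KO, a ratio to WT of 24.9 (95% exact interval for counting error 6.32 to 215) after Kmt2d KO, with 20, 9 and 1 counts in its libraries. Wnt3 had 0 counts in WT, 3, 4 and 4 in the Kmt2c KO libraries and 0 after Kmt2d KO, at least 3.67-fold higher than a floor of 3 counts over the WT group. Neither was tested across libraries.

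**Figure D4:**
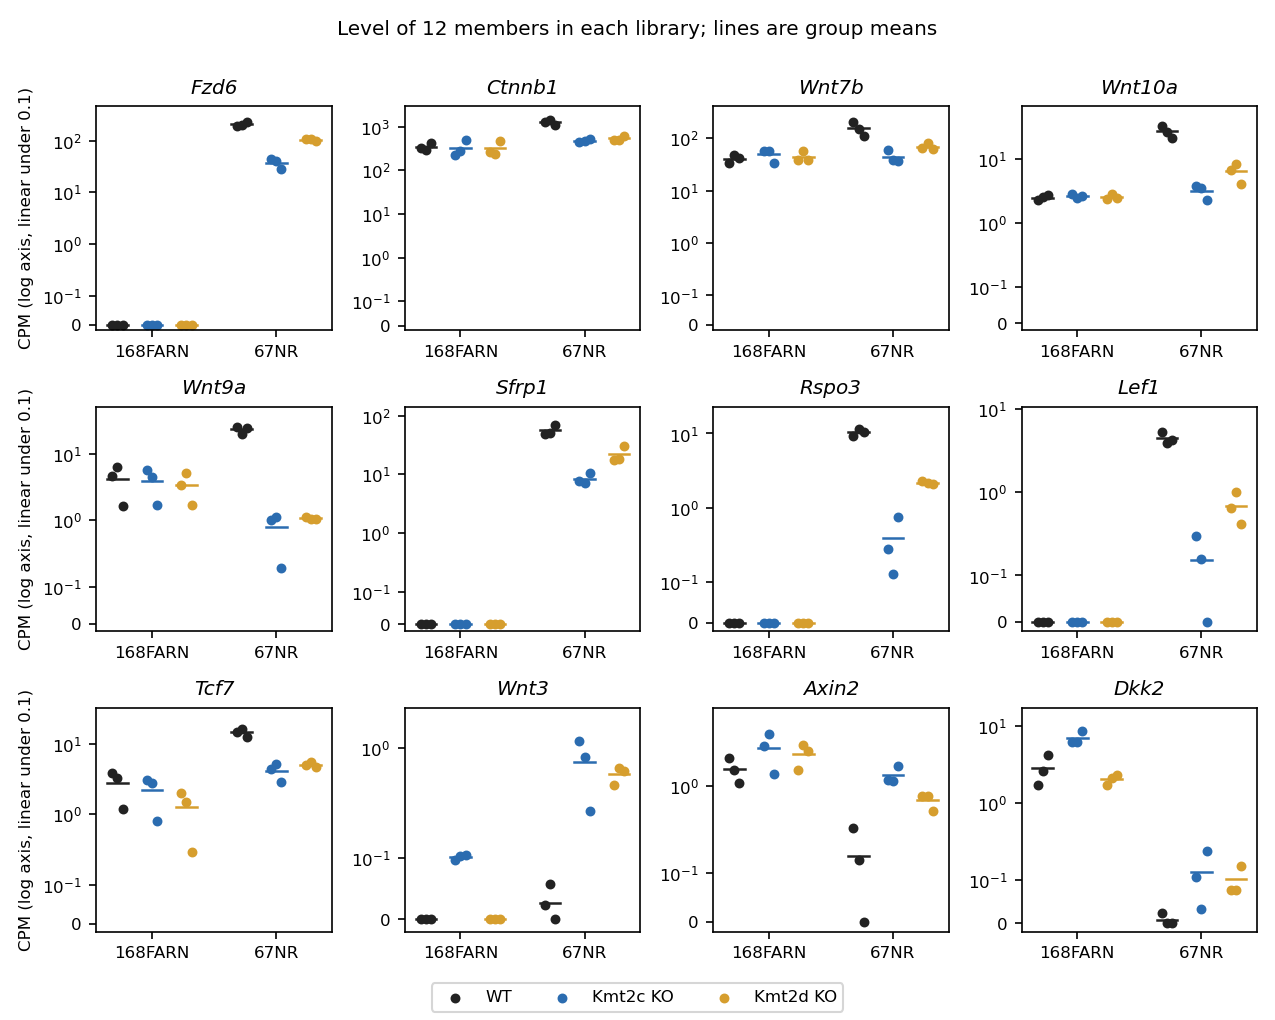
CPM of 12 members in each library on a log axis that is linear under 0.1, by line and genotype, with horizontal lines at group means. In 67NR both KO groups lie below WT for the first 9 genes and above WT for Wnt3 and Axin2, and in 168FARN the Kmt2c KO libraries are the highest for Dkk2.

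The KO effects of the lines were set against each other in a fit of all 18 libraries. The Kmt2c KO effect differed between 67NR and 168FARN for 8 of 36 members tested, 1 higher and 7 lower in 67NR, beside 16% of all 13882 genes (8.49% higher and 7.55% lower). The Kmt2d KO effect differed for 4 members, 1 higher and 3 lower, beside 10.6% (6.68% higher and 3.92% lower). For Wnt10a the log2 difference of effects was -3.22 ± 0.39 (adjusted p = 4.19e-05) for Kmt2c and -2.15 ± 0.39 (adjusted p = 0.00221) for Kmt2d. Wnt9a differed by -4.86 ± 0.86 (adjusted p = 0.00127) and -4.19 ± 0.86 (adjusted p = 0.00584), and Wnt7b by -2.17 ± 0.40 (adjusted p = 0.00174) and -1.35 ± 0.40 (adjusted p = 0.052). With the replicate block 15 and 11 members were called, beside 34.6% and 28.4% of all genes. Fzd6, Fzd9, Sfrp1, Rspo3, Lef1 and Wnt10b had no count in the 9 libraries of 168FARN, so a difference between the lines in their KO effects could not be estimated. These genes stayed among the 36 tested. The counts of calls therefore describe the members that passed the filter, some of which had no measurable effect in 168FARN.

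Levels in WT cells of the 2 lines differed for many members, and line and count table cannot be told apart. Sample titles and column names give no sequencing run. The fit of all libraries called 25 of 36 members tested, 22 higher and 3 lower in 67NR, beside 39.2% of all genes (22.3% higher and 16.9% lower). The filter keeps genes that are high in only 1 group, so these counts describe the members that passed and not all members. In the filters made by line, 12 members passed in 67NR and not in 168FARN, and 2 passed in 168FARN and not in 67NR. The part of this imbalance in the excess of higher calls was not tested. Fzd6 had 0 counts in 168FARN WT cells and was at least 7300-fold higher in 67NR than a floor of 3 counts over the 168FARN WT group. On the same footing Wnt7a was at least 2070-fold, Sfrp1 1920-fold, Rspo3 366-fold, Lef1 162-fold, Rnf43 31.9-fold, Fzd9 29.0-fold and Wnt10b 11-fold higher, the last lost without any of 5 WT libraries. Fzd3, with 3 counts in 168FARN WT, was 602-fold higher (95% exact interval for counting error 206 to 2920). Wnt10a had a log2 difference of 3.40 ± 0.29 (adjusted p = 2.43e-07), Wnt9a of 2.46 ± 0.60 (adjusted p = 0.00435), Tcf7 of 2.40 ± 0.59 (adjusted p = 0.00453) and Ctnnb1 of 1.87 ± 0.31 (adjusted p = 0.000192). Calls of Fzd2, Fzd7, Lgr4, Lrp5, Tcf7l1 and Wnt3 were each lost without at least 1 WT library.

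The members lower in 67NR WT were Dkk2, Wnt6 and Axin2. Dkk2 had 2 counts in 67NR WT against 317 in 168FARN WT, a ratio of 298 (95% exact interval for counting error 53.2 to 11800). Wnt6 had 4 counts against 245, a ratio of 115 (31.6 to 958). Axin2 had a log2 difference of -3.21 ± 0.73 (adjusted p = 0.00267), and of -4.25 without 67NR WT replicate 1. Epithelial markers differed between the lines as well. In 168FARN WT 2 of 10 were above 1 CPM, with a summed level of 124 to 392 CPM and Epcam, Cldn3, Cldn4, Cldn7 and Esrp1 at 0 counts, and the part of this difference was not tested.

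Per transcript length the order of members in WT cells began in each line with Ctnnb1, at 68.4 ± 14.2 RPKM (SD, n = 3) in 168FARN and 251 ± 34.5 in 67NR. In 168FARN it was followed by Axin1 at 11.5 ± 3.92, Wnt7b at 9.31 ± 1.67, Lrp6 at 8.42 ± 1.39, Fzd7 at 7.93 ± 2.28 and Lrp5 at 7.25 ± 0.65 RPKM, whose ranges over libraries overlapped from 1 gene to the next. In 67NR the order was Fzd6 at 51.2 ± 4.33, Wnt7b at 35.5 ± 10.4, Wnt7a at 17.3 ± 5.34, Axin1 at 17.3 ± 5.69 and Fzd7 at 13.6 ± 2.48 RPKM. The ranges of Ctnnb1, Fzd6 and Wnt7b were apart from one another, and those of Wnt7a, Axin1 and Fzd7 overlapped.

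Other genes of the pathway were counted from 4 lists, to be read against the 35.3% of all genes called after Kmt2c KO and the 25.5% called after Kmt2d KO in 67NR. In the list of secretion factors, coreceptors and extracellular modulators, 10 of 15 were tested in 67NR, with 5 higher and 1 lower after Kmt2c KO (60% called) and 4 higher and 1 lower after Kmt2d KO (50%). Gpc4, a cell surface heparan sulphate proteoglycan, rose from 5.58, 6.35 and 2.72 CPM in WT to 153, 138 and 170 after Kmt2c KO and 93.0, 94.7 and 98.3 after Kmt2d KO, with log2 fold changes of 4.97 ± 0.31 (adjusted p = 7.21e-06) and 4.28 ± 0.30 (adjusted p = 2.18e-05). Gpc6, of the same family, changed by 4.05 ± 0.56 and 3.53 ± 0.55, and Apcdd1, a membrane inhibitor of Wnt signalling, by 2.67 ± 0.23 and 1.92 ± 0.23.

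Of 31 cytoplasmic and nuclear components tested, 3 were higher and 5 lower after Kmt2c KO and 2 higher and 4 lower after Kmt2d KO, shares of 25.8% and 19.4% that lay under those of all genes. Bcl9, a cofactor of beta-catenin, fell by 1.16 ± 0.15 and 0.98 ± 0.15 on the log2 scale (adjusted p = 0.000329 and 0.00139). Dact3, an inhibitor of the pathway, rose by 3.79 ± 0.51 and 3.30 ± 0.50 on that scale, from 0.278, 0.731 and 0.180 CPM in WT. Tnik, a kinase of the TCF complex, fell by 2.34 ± 0.52 after Kmt2c KO, and Nkd2, which binds Dishevelled, by 2.02 ± 0.59 after Kmt2d KO.

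In the list of planar polarity and other genes of Wnt signalling without beta-catenin, 22 of 24 were tested in 67NR, with 1 higher and 8 lower after Kmt2c KO (40.9% called) and 1 higher and 7 lower after Kmt2d KO (36.4%). Vangl2, a core planar polarity membrane protein, was at 19.2, 17.9 and 23.7 CPM in WT, 2.15, 1.75 and 1.77 after Kmt2c KO and 6.53, 7.67 and 5.46 after Kmt2d KO, changes of -3.42 ± 0.23 and -1.63 ± 0.21 on the log2 scale (adjusted p = 8.66e-06 and 0.000644). Prickle1, its cytoplasmic partner, changed by -3.70 ± 0.35 and -2.78 ± 0.34, whereas Prickle3 rose by 4.61 ± 0.59 and 4.01 ± 0.58. In 168FARN 16 of this list were tested. After Kmt2c KO 0 were called, beside 0.359% of all genes, and after Kmt2d KO 1, beside 0.286%. It was Ptk7, a pseudokinase coreceptor, which went from 13.1, 14.4 and 7.25 CPM in WT to 0.346, 0.495 and 0.0740 after Kmt2d KO (log2 fold change -5.31 ± 0.73, adjusted p = 0.0487). Without WT replicate 2, without Kmt2d KO replicate 2 or with only the 6 libraries compared, no gene was called in that comparison, so the Ptk7 call was lost.

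Of 14 genes known as targets of beta-catenin and TCF that were tested in 67NR, 8 were higher and 3 lower after Kmt2c KO (78.6% called) and 7 higher and 3 lower after Kmt2d KO (71.4%). Tbx3, a T-box factor of mammary development, rose from 2.26, 2.31 and 1.73 CPM in WT to 141, 133 and 84.4 after Kmt2c KO and 73.3, 79.6 and 58.4 after Kmt2d KO, with log2 fold changes of 5.83 ± 0.28 (adjusted p = 2.68e-06) and 5.06 ± 0.27 (adjusted p = 7.54e-06). Tbx3 was also called in 168FARN Kmt2c KO cells, at 44.3, 46.4 and 38.6 CPM against 20.1, 21.0 and 21.6 in WT (log2 fold change 1.04 ± 0.15, adjusted p = 0.0467). It was the only call among the 13 genes of this list tested in 168FARN, beside 0.359% of all genes. After Kmt2d KO 0 were called there, beside 0.286%. Snai2, a repressor of epithelial genes that is also among the mesenchymal markers, rose by 4.16 ± 0.32 and 4.02 ± 0.31 in 67NR. Tnfrsf19, also known as Troy, changed by -4.04 ± 0.25 and -2.96 ± 0.24.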

How the data were processed

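RNA from cultured cells was made into strand-specific mRNA libraries and sequenced as read pairs, and the authors aligned the reads with STAR. The deposited values are raw counts per gene symbol, not normalized, in 1 table per line, and the processing notes name mm9. The strand setting of the counting and whether reads or pairs were counted are not given in the sources used here. All 18 columns were matched to a sample by name and 0 were left over. Members were matched by symbol and their positions taken from an mm9 annotation, and promoters came from the RefSeq table of GRCm38.p6. The members and gene lists were chosen with earlier results of these data known.

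Genes were filtered with filterByExpr by group, scaled by TMM and tested with the quasi-likelihood test of edgeR 4.0.16 (R 4.3.3, robust fit), over the 9 libraries of a line or all 18, with genotype and line as the only factor and Benjamini-Hochberg adjustment over all genes tested. The scripts were tested on simulated data. RPKM divides CPM by the union exon length. Errors of log2 fold changes are standard errors. Ratios of groups with 3 or fewer read units have exact conditional intervals, which cover counting error only, as do floors of 3 counts. Values in every library of a line are given for members called in a comparison of KO with WT in that line. They are also given for the 6 with the highest RPKM in its WT cells. Genes with few reads carry large standard errors. Alternatives were DESeq2 1.42.0, other scaling, no filter, other thresholds, fewer libraries, a replicate block and, chosen after seeing the data, leaving out Rn45s and halving the 67NR counts.

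The study's methods describe replicates as collections of a cell line separated by a passage, so p-values measure the spread between collections of the same cells and not between independently made KO populations. Deviations from group means had same-number correlations between 0.751 and 0.93 (168FARN) or between 0.49 and 0.834 (67NR). Replicates 1 and 2 of different groups correlated at 0.72 to 0.824 (168FARN) and 0.397 to 0.734 (67NR), whereas replicate 3 correlated negatively with both. Replicate 3 thus stood apart in each group, and these values do not show that the numbers 1 and 2 pair the samples. That a number marks a shared collection is not given in the labels. Overlapping genes and paralogues that share reads are uncertain. A list of immune markers is not reported here.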

Additional observations from a re-analysis of the deposited data

Results flagged for a closer look

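Effects of a KO that differed between the lines in the test of the difference itself are given here as log2 differences, 67NR minus 168FARN. For Kmt2c KO these were 8 of 36 members tested (22.2%), beside 16% of all genes. For Kmt2d KO they were 4 of 36 (11.1%), beside 10.6% of all genes, so that share was near the share of all genes. For Kmt2c KO the difference was -1.41 for Ctnnb1 (adjusted p = 0.0448), -1.91 for Fzd1 (adjusted p = 0.0096), -1.63 for Fzd7 (adjusted p = 0.0322), -3.22 for Wnt10a, -2.17 for Wnt7b and -4.86 for Wnt9a. Rnf43 differed by -6.32 (adjusted p = 0.0108) and Sfrp4 by 5.81 (adjusted p = 0.0792), but both rested on few reads, since Rnf43 had 0 counts in 168FARN WT and 9 in 168FARN Kmt2c KO, and Sfrp4 had 2 counts in 67NR WT. For Kmt2d KO the difference was -2.15 for Wnt10a, -1.35 for Wnt7b, -4.19 for Wnt9a and 3.46 for Dkk2 (adjusted p = 0.055), the last with 2 counts in 67NR WT.

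With 1 library left out at a time, the calls of Wnt10a and Wnt9a for both KO effects and those of Fzd1, Rnf43 and Wnt7b for Kmt2c remained. That of Ctnnb1 was lost in 5 fits (without 168FARN WT replicate 1 or 2, 168FARN Kmt2c KO replicate 3, or 67NR Kmt2c KO replicate 1 or 2, adjusted p from 0.101 to 0.124) and that of Fzd7 in 4 (without 168FARN WT replicate 3, 168FARN Kmt2c KO replicate 1 or 2, or 67NR Kmt2c KO replicate 3, adjusted p from 0.107 to 0.129). Sfrp4 was lost in 8 fits (adjusted p from 0.113 to 0.236), all but those without 168FARN WT replicate 3, 168FARN Kmt2c KO replicate 2, 67NR WT replicate 1 or 67NR Kmt2c KO replicate 3, and its difference was 7.44 without 168FARN Kmt2c KO replicate 2 and 7.87 without 67NR WT replicate 1. For Kmt2d, Wnt7b was lost in 6 fits (without 168FARN WT replicate 1 or 3, 168FARN Kmt2d KO replicate 2, 67NR WT replicate 1, or 67NR Kmt2d KO replicate 1 or 3, adjusted p from 0.114 to 0.203) and Dkk2 in 2 (without 67NR WT replicate 2 or 67NR Kmt2d KO replicate 3, adjusted p of 0.143 and 0.121). Without 67NR WT replicate 1 the Dkk2 difference was 5.54.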

How the results depend on the processing

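Over 75 pairs of a called member and a comparison, 1263 of 1382 values under other settings kept their direction and call, 119 kept the direction and lost the call, and 0 changed direction. The numbers of members called in either KO of 67NR against WT, and in WT against WT, stayed within 1.5 times under the alternatives run.

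In 168FARN, where the main counts were 0, Kmt2c KO against WT gave 1 with DESeq2, 2 with the replicate block in edgeR, 2 with the block in DESeq2 and 5 without the replicates 3 of all groups. The share of all genes called went from 0.359% to 2.35%, 7.23%, 7.48% and 14.5% in that order. Kmt2d KO against WT gave 1 with the block in either tool and 2 without the replicates 3. Its share of all genes went from 0.286% to 5.9% and 6.5% with the block in edgeR and DESeq2, and to 11% without the replicates 3. The KO groups against each other gave 1 with DESeq2, 1 with the block, 2 with the block in DESeq2 and 2 without the replicates 3. Here the share of all genes went from 0.253% to 1.92%, 5.33%, 5.77% and 9.29% in that order. In 67NR the KO groups against each other had 3 calls, which became 1 at an adjusted p under 0.05 with or without a fold change threshold, 0 with scaling by total counts, 1 with the 6 libraries compared, 6 with DESeq2, 7 with the block in either tool and 9 without the replicates 3. From 1.41%, the share of all genes became 0.659%, 0.3%, 0.784% and 4.37% in that order. It was 7.29% and 8.86% with the block in edgeR and DESeq2, and 12.6% without the replicates 3. Leaving out 1 library gave 1 to 4, beside 0.302% to 1.51% of all genes. The Kmt2c KO effect between lines, with 8 calls, gave 13 with DESeq2, 15 with the block in either tool and 15 without the replicates 3. The Kmt2d KO effect, with 4, gave 2 at an adjusted p under 0.05 with or without a fold change threshold, 7 with DESeq2, 11 with the block in either tool, 14 without the replicates 3 and 2 to 5 with 1 library left out. The share of all genes called moved as well, for the Kmt2c KO effect between lines from 16% to 20.5% with DESeq2, 34.6% and 35.6% with the block in edgeR and DESeq2 and 38% without the replicates 3, and for the Kmt2d KO effect from 10.6% to 14.4%, 28.4%, 29.3% and 32.5%. For the Kmt2d KO effect the share was 7.3% at an adjusted p under 0.05, and 7.37% to 11% with 1 library left out. The cause of these moves was not tested. Members with few counts, such as Sfrp4 and Dkk2, had fitted changes that moved by over 1.5 times without 1 library.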
